A study of Mus musculus with 64 samples.

Results

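The 10 genes described here encode PIWI proteins and factors of PIWI-interacting RNA (piRNA) biogenesis: *Piwil1*, *Piwil2*, *Piwil4*, *Mov10l1*, *Pld6*, *Asz1*, *Fkbp6*, *Gtsf1*, *Mael* and *Ddx4*. They were chosen by name, as the rows with these symbols among the 26385 genes of the RNA-Seq tables, and all 10 were found. Their levels were followed through 47 RNA-Seq libraries of mouse germ cells and testes, each made from 1 animal. Levels are given as RPKM, reads scaled to exon length and to the mapped reads of the library.

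The libraries fell into 2 kinds. Of the 47, 20 came from germ cells sorted from *Morc1* tg/tg males, named *Morc1* KO in the labels, and from *Morc1* tg/+ (het) males. They covered embryonic day E16.5 (2 tg/+ and 2 tg/tg libraries), embryonic day E18.5 (2 and 2), postnatal day P2.5 (3 and 2) and postnatal day P10.5 (4 and 3). The other 27 came from whole testis. In the *Morc1* line there were 1 *Morc1*+/+ (WT), 2 tg/+ and 3 tg/tg libraries at P10.5, a preliminary +/+ and a preliminary tg/+ library at the same age that entered only an alternative fit, and 3 tg/+ and 3 tg/tg libraries at P14.5. The *Dnmt3l* line had 3 *Dnmt3l*+/+, 3 *Dnmt3l*+/- and 3 *Dnmt3l*-/- testes, and the *Miwi2* line had 2 *Miwi2*+/- testes and 2 labelled *Miwi2*-/-, all at P10.5. The *Morc1* tg allele is an FVB/N tyrosinase transgene integration that removed early exons of *Morc1*, so every cell of the animal carried it. At the embryonic stages and P2.5 the allele was crossed with an *Oct4*-IRES-eGfp reporter and germ cells were sorted as eGFP-positive, whereas at P10.5 they were sorted as side scatter low, EPCAM high and MHC class I negative. Every heterozygous control carried 1 mutant allele. *Dnmt3l* encodes the catalytically inactive partner of the *de novo* DNA methyltransferases, and *Miwi2* is another name of *Piwil4*. MORC1 is a GHKL ATPase of the germ cell nucleus, and the study asked whether it silences transposons through the piRNA pathway or apart from it.

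piRNAs guide PIWI proteins to transposon transcripts in the germline. Precursor transcripts are taken by an RNA helicase to the surface of mitochondria, cut there, loaded into a PIWI protein and trimmed. In fetal prospermatogonia PIWIL2 (MILI) cuts transposon RNA in the cytoplasm, and the products load PIWIL4 (MIWI2), which enters the nucleus and directs DNA methylation to transposons. PIWIL1 (MIWI) acts later, in spermatocytes and spermatids, where it binds the abundant pachytene piRNAs. Among the other members, MOV10L1 is the helicase that binds piRNA precursors, PLD6 is the mitochondrial surface protein with the nuclease fold that is tied to forming piRNA ends, and ASZ1 is a scaffold that tethers the machinery near mitochondria. FKBP6 is a co-chaperone of the loading step, GTSF1 is a zinc finger partner of PIWI proteins, MAEL is a germ granule protein needed for transposon silencing, and DDX4 (the mouse Vasa homologue) is an RNA helicase of germ granules and a general germ cell marker.

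In the mm9 annotation of the gene tables the PIWI genes lie at chr5:129242121-129261349 (*Piwil1*, + strand), chr14:70772287-70828901 (*Piwil2*, - strand) and chr9:14500674-14545177 (*Piwil4*, - strand). The genes of precursor processing lie at chr15:88813339-88885582 (*Mov10l1*, +), chr11:59597399-59601147 (*Pld6*, -) and chr6:18000964-18059061 (*Asz1*, -). The cofactors and germ granule genes lie at chr5:135767574-135825895 (*Fkbp6*, -), chr15:103232836-103260901 (*Gtsf1*, -), chr1:168131516-168168875 (*Mael*, -) and chr13:113388541-113442518 (*Ddx4*, -). The 10 genes are thus scattered over 8 chromosomes, and each value below is 1 count over all exons of the gene.

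Several members changed together between P10.5 and P14.5, so their promoters were read. RefSeq windows of 250 bases before to 50 after a start site (GRCm38.p6, a build whose coordinates differ from mm9) matched 9 of the 10 genes with 12 windows. *Piwil2* had no window in this table. The 6 letters CACGTG, the E-box core that is its own reverse complement, occurred in 7 of the 12 windows and in 6 of the 9 genes (*Piwil1*, *Mov10l1*, *Pld6*, *Fkbp6*, *Mael* and *Ddx4*), where the 2 *Fkbp6* windows overlap each other. Of all 32841 windows of the same length 7.15% held it. Base composition was part of this contrast: the member windows had a median observed over expected CpG of 0.688 against 0.384 for all windows, and among the 13772 windows with at least 0.5, which included 11 of the 12 member windows, 10.9% held CACGTG. The other motifs, also searched on both strands, lay near their background. AACNG, the core bound by MYB proteins, was in 11 member windows and 80.3% of all windows, and TCCCGC, the letters of an E2F core, was in 2 member windows (*Ddx4* and *Mael*) and 20.0% of all windows. The windows of 3 members are shown because they belong to the members with the largest late rise, the highest fetal level and the steepest fetal fall. Capitals mark CACGTG.
*Piwil1*, chr5:128735996-128736295, + strand: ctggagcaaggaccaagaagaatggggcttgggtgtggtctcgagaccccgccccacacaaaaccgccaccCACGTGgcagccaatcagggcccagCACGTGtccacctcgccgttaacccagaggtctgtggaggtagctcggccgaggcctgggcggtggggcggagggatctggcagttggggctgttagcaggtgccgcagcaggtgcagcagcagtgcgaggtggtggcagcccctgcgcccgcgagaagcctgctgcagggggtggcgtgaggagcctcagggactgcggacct
*Mael*, chr1:166238695-166238994, - strand: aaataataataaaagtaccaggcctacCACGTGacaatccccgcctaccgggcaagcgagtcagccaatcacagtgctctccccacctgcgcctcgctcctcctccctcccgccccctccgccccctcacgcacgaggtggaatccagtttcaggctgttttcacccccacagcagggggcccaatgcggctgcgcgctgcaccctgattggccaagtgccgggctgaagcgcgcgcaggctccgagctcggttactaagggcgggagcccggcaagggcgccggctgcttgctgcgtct
*Piwil4*, chr9:14740623-14740922, - strand: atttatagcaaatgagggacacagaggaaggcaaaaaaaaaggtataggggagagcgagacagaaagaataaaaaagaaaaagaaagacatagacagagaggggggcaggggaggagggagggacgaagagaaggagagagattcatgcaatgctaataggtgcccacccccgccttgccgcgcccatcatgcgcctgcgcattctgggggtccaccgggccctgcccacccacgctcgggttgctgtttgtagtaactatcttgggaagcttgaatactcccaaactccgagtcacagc
The *Piwil1* window held CACGTG in 2 places, the *Mael* window in 1 and the *Piwil4* window in none. A run of letters is a description of the window and not a bound site, and no binding data of a factor were analysed here.

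Gene counts summed to between 2413679 and 14918478 per sorted library (median 7542692) and between 22509570 and 42137954 per testis library (median 28815956). Among the members small counts therefore mattered only in sorted cells, where *Pld6* went down to 3 reads in a P2.5 tg/+ library. *Morc1* itself was lower in tg/tg in all 6 *Morc1* comparisons, by 1.05 to 2.32 on the log2 scale, and passed the test in all but E18.5 (adjusted p = 0.139). *Dnmt3l* was lower by 3.93 in *Dnmt3l*-/- testes (adjusted p = 1.02e-05), where it had 3 to 4 reads per library. *Piwil4*, the gene targeted in the *Miwi2* line, was higher in the libraries labelled *Miwi2*-/- (log2 0.69). No pair of replicates agreed within sampling noise. Sertoli cell markers summed to between 26.5 and 112 RPKM in sorted libraries and to between 1836 and 4801 in testes.

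In control germ cells 7 of the 10 members had their highest mean at E16.5, the earliest stage sampled. *Ddx4* (91.3 ± 9.05 RPKM, n = 3) and *Asz1* (15.4 ± 7.54) had theirs at P2.5 and *Pld6* (3.82 ± 0.70, n = 4) at P10.5, and in each of these 3 genes the libraries overlapped those of E16.5. In the 2 tg/+ libraries of E16.5 *Mael* stood at 452 ± 72.3 RPKM (SD), *Fkbp6* at 256 ± 44.5, *Mov10l1* at 148 ± 29.5 and *Piwil2* at 113 ± 25.7. *Gtsf1* stood at 103 ± 14.6, *Piwil4* at 80.1 ± 12.0 and *Ddx4* at 72.1 ± 16.7. *Asz1* (14.7 ± 3.13), *Piwil1* (9.92 ± 0.58) and *Pld6* (3.16 ± 0.47) were the lowest. In this order the libraries of *Mov10l1* and *Piwil2*, of *Piwil2* and *Gtsf1*, and of *Piwil4* and *Ddx4* overlapped, and those of the other neighbours did not. Both fetal PIWI genes were thus among the abundant members, and *Piwil1* was not.

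By P10.5 the order had closed up. In the 4 tg/+ libraries of sorted cells *Mael* (80.8 ± 6.33 RPKM) and *Fkbp6* (77.9 ± 4.78) led, followed by *Mov10l1* (53.5 ± 1.42) and *Ddx4* (53.2 ± 3.40), then *Piwil2* (29.4 ± 3.67) and *Gtsf1* (28.5 ± 3.57), with overlapping values within each pair. *Asz1* stood at 13.6 ± 0.777, *Pld6* at 3.82 ± 0.70, *Piwil4* at 3.55 ± 0.96 and *Piwil1* at 2.00 ± 0.44. *Piwil4* had gone from the sixth place by mean at E16.5 to the ninth, where its libraries (2.52 to 4.76) overlapped those of *Pld6* (3.14 to 4.77).

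*Piwil4* fell at each step. Its RPKM in tg/+ cells were 71.5 and 88.6 on E16.5. The E18.5 libraries held 21.2 and 22.7, those of P2.5 held 9.41, 11.5 and 12.4, and those of P10.5 held 3.13, 4.76, 3.79 and 2.52. No library of a stage reached the range of the stage before it. The log2 changes were -1.83 (SE 0.23, adjusted p = 3.99e-05), -1.17 (adjusted p = 0.000379) and -1.36 (adjusted p = 4.83e-05). *Mael* went from 401 and 503 RPKM at E16.5 through 199.8 and 196.5 at E18.5 and 143, 215 and 227 at P2.5 to 86.2, 72.2, 84.7 and 79.9 at P10.5. It fell in the first step (-1.16, adjusted p = 0.000101) and the last (-0.99, adjusted p = 2.3e-05), and not in the middle one (-0.22), where the libraries overlapped.

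**Figure D1:**
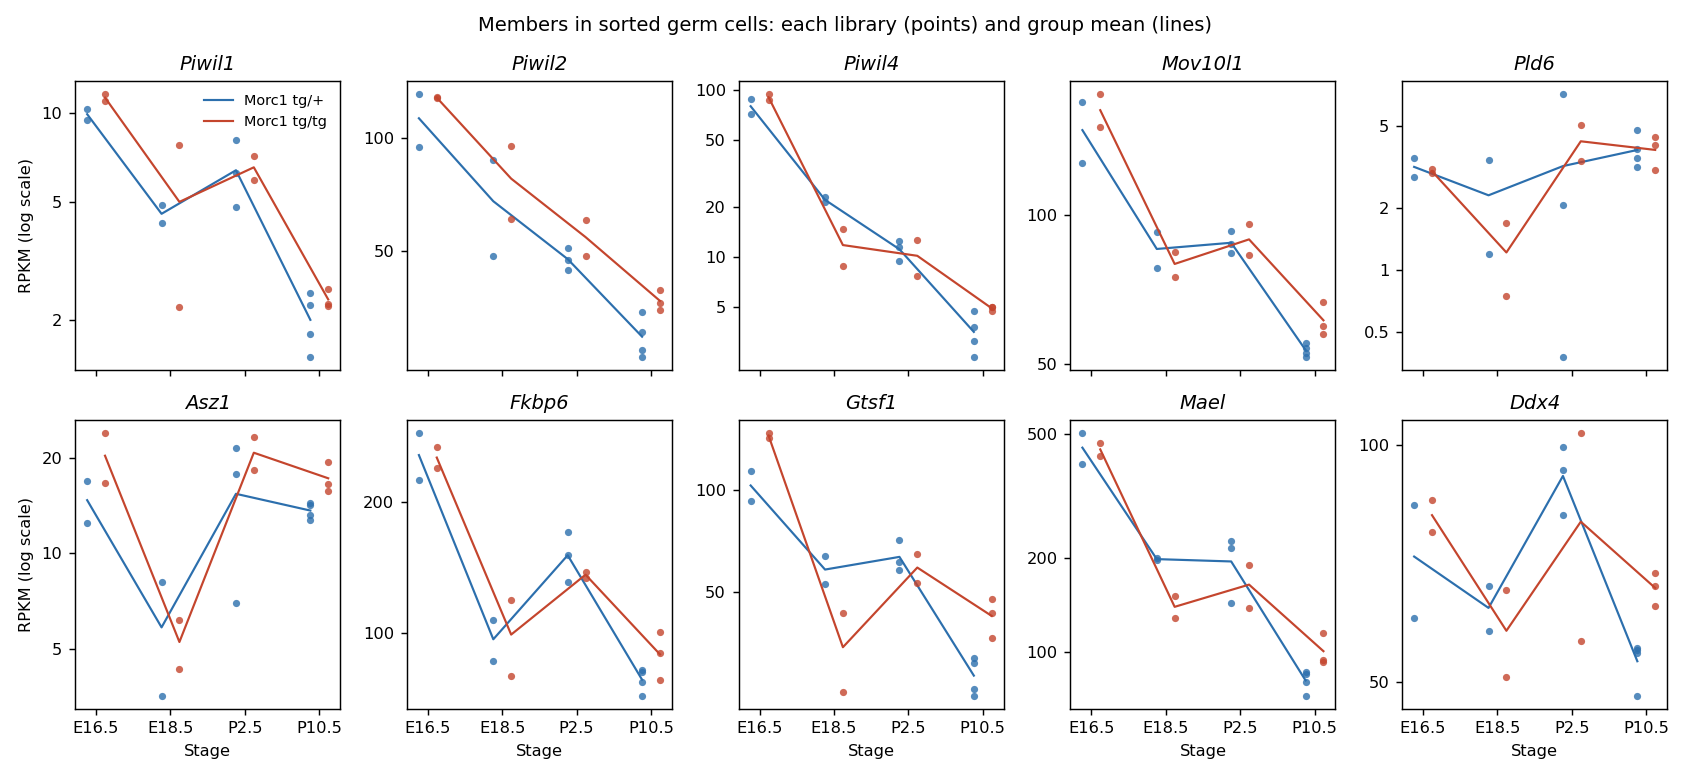
RPKM on a log axis of the 10 genes in sorted germ cells from E16.5 to P10.5, with 1 point per library, *Morc1* tg/+ and tg/tg in separate colours and lines through the group means. *Piwil4* goes from 71.5 and 88.6 to between 2.52 and 4.76 in tg/+ cells, and at the 3 earlier stages no gene passed the test between genotypes.

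Over all members, 8 of 10 fell between E16.5 and E18.5 and none rose, while 18.7% of the 16890 genes tested changed in either direction and 1778 fell. Those were *Piwil4*, *Fkbp6* (-1.39, adjusted p = 3.27e-06), *Asz1* (-1.34, adjusted p = 0.0218), *Mael*, *Piwil1* (-1.09, adjusted p = 0.0167), *Gtsf1* (-0.80, adjusted p = 0.00375), *Mov10l1* (-0.75, adjusted p = 0.000999) and *Piwil2* (-0.73, adjusted p = 0.00611). *Ddx4* (-0.19) and *Pld6* (-0.39) did not pass. The median log2 change was -0.94 for the members and -0.07 for all genes. Without E16.5 tg/+ replicate 2 the calls of *Piwil1*, *Piwil2* and *Asz1* were lost. Of 6 germ cell markers 4 were higher and 1 lower at E18.5, and 4 of 7 markers of undifferentiated spermatogonia were higher. The summed endothelial markers went from between 11.8 and 14.4 to between 28.1 and 33.0 RPKM (1 of 3 higher), and the part of these markers was not tested.

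The step across birth was mixed. From E18.5 to P2.5, 3 members rose (18.1% of all genes did) and 2 fell (21% of all genes did), with neither count far from the share of all genes. The 3 were *Asz1* (1.27, adjusted p = 0.0118), *Fkbp6* (0.46, adjusted p = 0.00473) and *Ddx4* (0.37, adjusted p = 0.0195), and the 2 were the fetal PIWI genes, *Piwil4* and *Piwil2* (-0.67, adjusted p = 0.00298). *Asz1* was the most uneven of them, at 8.12 and 3.55 RPKM at E18.5 and at 6.95, 21.4 and 17.8 at P2.5. Without P2.5 tg/+ replicate 2 the calls of *Asz1* and *Ddx4* were lost. With E18.5 tg/+ replicate 2 left out, which leaves 1 library at that stage, the *Asz1* change was 0.88 in place of 1.27. Without E18.5 tg/+ replicate 1 the *Piwil2* change was -0.33 (adjusted p = 0.0779) and *Mov10l1* was called lower in its place (-0.37, adjusted p = 0.0163), and *Ddx4* was lost. In this step 6 of 7 undifferentiated spermatogonia, 3 of 5 differentiating spermatogonia and 3 of 8 early meiosis markers rose. The endothelial sum went back to between 14.2 and 20.0 RPKM (1 of 3 lower). The peritubular sum went from between 9.13 and 10.2 to between 4.08 and 4.87 RPKM (1 of 4 lower), and 1 of 4 Leydig markers tested was lower. Their part was not tested.

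From P2.5 to P10.5 the fall resumed, in 8 of 10 members against 14.2% of all genes. It was steepest in *Piwil1* (-1.39, adjusted p = 0.000291) and *Piwil4*, followed by *Mael*, *Gtsf1* (-0.87, adjusted p = 0.00017) and *Fkbp6* (-0.67, adjusted p = 7.4e-05). *Ddx4*, *Mov10l1* and *Piwil2* fell by 0.50, 0.43 and 0.41, and the *Piwil2* call (adjusted p = 0.0287) was lost in 5 of 15 alternatives. *Pld6* (0.54, adjusted p = 0.557) and *Asz1* (0.09, adjusted p = 0.851) did not pass. Neighbouring steps share the libraries of the stage between them, and at P10.5 cells were sorted by scatter and surface markers and at P2.5 by the reporter, whose cross gave a mixed genetic background, so stage, gate and background cannot be told apart in this last step. The summed RPKM of undifferentiated spermatogonia markers went from between 266 and 315 to between 120 and 131 (5 of 7 lower), of Sertoli markers from between 33.5 and 37.3 to between 66.0 and 112 (3 of 7 higher), and of endothelial markers from between 14.2 and 20.0 to between 2.16 and 2.75 (2 of 3 lower). Their part was not tested.

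The other genes of the pathway were read from a list of 18 tudor domain, trimming, methylation and control genes. Of the 18, 10 fell and none rose from E16.5 to E18.5, where 1778 of the 16890 genes fell, led by *Tdrd12* (-2.21) and by *Pnldc1* (-1.33), the piRNA trimmer. Over birth 3 rose (18.1% of all genes did, a like share), with *Tdrd12* at 2.26 and *Pnldc1* at 1.43, and 8 fell (21% of all genes did), with *Spocd1*, a partner of MIWI2 in DNA methylation, at -3.60 and *Tdrd9*, a helicase of the MIWI2 arm, at -1.84. From P2.5 to P10.5 2 rose (*Tdrkh* 0.96 and *Prmt5* 0.94), no larger a share than the 13.4% of all genes, and 5 fell (14.2% of all genes did), led by *Tdrd6*, a tudor gene of later germ cells, at -4.80.

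Likeness of profile was measured over the 11 tg/+ sorted libraries as Pearson's r of log2(RPKM + 0.1) among 12756 genes with a mean of at least 1 RPKM. The genes most like *Piwil4* were *Pot1a* (r = 0.991), *Pmfbp1* (0.988) and *Lrpprc* (0.988), and the nearest members were *Mael* (0.959), *Mov10l1* (0.951) and *Piwil2* (0.950). *Pmfbp1* went down to 0 RPKM (highest 5.49), so its r rests in part on the added 0.1. With 1 added in place of 0.1, *Pot1a* stayed first (0.992), followed by *Rps4x* (0.989) and *Gm949* (0.987). The nearest to *Piwil2* was *Ctr9* (0.990) and the nearest to *Mael* was *Socs5* (0.988). For the remaining members the nearest gene reached between 0.947 (for *Pld6*) and 0.986 (for *Fkbp6*). These libraries fall into 4 stages, so a high r here mostly says that a gene has the same order of stages.

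In fetal and newborn germ cells no member was called between *Morc1* tg/tg and tg/+ by edgeR's quasi-likelihood test with the filter on low counts, all libraries and no replicate block, though at E16.5 *Gtsf1* or *Asz1* was called in 4 of 8 alternatives. At E16.5 none of the 10 was called, against 0.421% of 16630 genes, at E18.5 none against 0.0416% of 14422, and at P2.5 none against 0.0486% of 14413. Few genes passed at all at the last 2 stages, where 895 and 698 genes had an unadjusted p under 0.05 (1447 at E16.5). With 2 or 3 libraries a group, a missing call does not show that levels were equal. The difference of the *Morc1* effect between E16.5 and P10.5 sorted cells also passed for none of the members, against 1.71% of 16917 genes, where 2407 genes had an unadjusted p under 0.05.

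At E16.5 the largest value belonged to *Gtsf1*, with 92.6 and 113 RPKM in tg/+ and 146.5 and 142.0 in tg/tg cells. Both tg/tg libraries lay above both controls (log2 0.41, adjusted p = 0.105), and the gene was called by DESeq2 (adjusted p = 0.0268) and by edgeR without the filter on low counts (adjusted p = 0.0431) or with a replicate block (adjusted p = 0.0445). At 2 libraries a group the block leaves little from which to estimate the spread. *Asz1* was at 12.5 and 16.9 against 23.9 and 16.7 (0.40, adjusted p = 0.430), with overlap, and was called without tg/tg replicate 2 (0.62, adjusted p = 0.0252). *Piwil4* was at 71.5 and 88.6 against 94.6 and 86.9, and *Piwil2* at 95.0 and 131.3 against 128.9 and 128.1, and these groups overlapped too. The other 8 members lay within 0.16 of no change, and the median of the 10 was 0.10 against -0.01 for all genes.

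At E18.5 no member passed the test, and 3 lay lower in both tg/tg libraries than in both controls. The share of all genes separated in this way was not counted, and with 2 libraries a group it can arise without a difference. *Piwil4* was at 21.2 and 22.7 RPKM in tg/+ and 14.7 and 8.88 in tg/tg cells (log2 -0.83, adjusted p = 0.703). *Gtsf1* was at 63.9 and 52.8 against 43.5 and 25.5 (-0.67). *Mael* was at 199.8 and 196.5 against 150.7 and 127.8 (-0.40). The 2 tg/tg libraries themselves were far apart, with *Piwil1* at 7.82 in 1 and 2.21 in the other.

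At P10.5 members were called higher in sorted tg/tg germ cells and lower in whole tg/tg testis, and *Piwil2* and *Ddx4* were called in both. The *Piwil2* call was lost in 7 of 11 alternatives in sorted cells and in 5 of 11 in testis (adjusted p up to 0.170 and 0.169), and that of *Ddx4* in 6 of 11 in sorted cells (up to 0.177) and in none in testis. The replicate block was among the losses of all 3 calls. In sorted cells 3 of the 10 were higher in tg/tg (6.43% of all genes were), and none was lower. *Gtsf1* was at 30.9, 32.1, 26.02 and 24.9 RPKM in tg/+ and 43.5, 47.7 and 36.7 in tg/tg, a log2 difference of 0.50 (SE 0.12, adjusted p = 0.00613). *Piwil2* was at 34.2, 30.3, 27.2 and 26.04 against 34.8, 39.2 and 36.1 (0.24, SE 0.079, adjusted p = 0.0446). *Ddx4* was at 55.2, 54.9, 54.5 and 48.1 against 62.5, 66.2 and 68.8 (0.23, SE 0.075, adjusted p = 0.0418). In each of these genes all tg/tg libraries lay above all tg/+ libraries in RPKM. So they did for *Mael* (0.24, adjusted p = 0.0718), *Asz1* (0.26, adjusted p = 0.119) and *Mov10l1* (0.12, adjusted p = 0.322), which did not pass. The share of all genes separated in this way was not counted. *Mael* was called by edgeR without the filter on low counts (adjusted p = 0.0321) and without tg/tg replicate 2 (adjusted p = 0.0370). Ratios of mean RPKM ran above the fitted fold changes here, at 1.497 against 1.41 for *Gtsf1*. *Piwil4* had 4.75, 5.03 and 4.98 RPKM in tg/tg, against a highest tg/+ library of 4.76 (0.38, adjusted p = 0.151), and was called without tg/+ replicate 2 (0.575, adjusted p = 0.0221). *Fkbp6* (0.12), *Piwil1* (0.14) and *Pld6* (-0.08) overlapped. Without tg/+ replicate 3, tg/+ replicate 4 or tg/tg replicate 3, *Gtsf1* alone was called.

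Marker genes of the cell types in the sorted gate moved as well. Summed RPKM of undifferentiated spermatogonia markers ran from 120 to 131 in tg/+ and from 160 to 192 in tg/tg, and 5 of 7 were called higher. Differentiating spermatogonia markers ran from 137 to 163 in tg/+ and from 106 to 120 in tg/tg (3 of 5 called lower and 1 higher), and early meiosis markers from 219 to 252 and from 190 to 200 (5 of 8 lower). The germ cell markers (*Dazl*, *Taf7l*, *Rbm46*, *Tex101*, *Nanos3* and *Sohlh1*, none of them a member) ran from 417 to 516 and from 465 to 516, with none of 6 called lower. Their single log2 changes ran from -0.27 to 0.75, so the sum is not a count of germ cells. Sertoli markers ran from 66.0 to 112 and from 44.6 to 93.4 (2 of 7 lower), and endothelial markers from 2.16 to 2.75 and from 3.22 to 3.89, with none called. The part of these shifts in the members' differences was not tested.

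In whole testis at P10.5 5 members were lower in tg/tg (9.26% of all genes were) and none was higher. *Mael* was at 52.3 RPKM in the +/+ and at 54.5 and 54.9 in the tg/+ testes, and at 39.4, 39.7 and 35.6 in tg/tg (log2 -0.48, SE 0.056, adjusted p = 0.000365). *Mov10l1* was at 23.97, 25.05 and 24.9 against 19.98, 18.3 and 17.6 (-0.39, SE 0.055, adjusted p = 0.00124). *Ddx4* was at 42.9, 47.4 and 46.6 against 37.6, 36.2 and 33.4 (-0.34, SE 0.060, adjusted p = 0.00403). *Fkbp6* (-0.26, adjusted p = 0.00613) and *Piwil2* (-0.24, adjusted p = 0.0350) were the other 2. In all 5 every tg/tg testis lay below every control, and the share of all genes separated in this way was not counted. *Pld6* (-0.34, adjusted p = 0.0598), *Piwil1* (-0.26), *Asz1* (-0.15), *Gtsf1* (-0.04) and *Piwil4* (0.11) did not pass. In bulk tissue fewer germ cells and less RNA per germ cell cannot be told apart, and the summed germ cell markers went with the members, from between 317 and 326 in controls to between 183 and 210 in tg/tg (5 of 6 called lower). Early meiosis markers went from between 106 and 112 to between 51.3 and 58.6, with 8 of 8 called lower, and differentiating spermatogonia markers from between 126 and 127 to between 80.3 and 91.6, with 4 of 5 lower. Sertoli markers went the other way, from between 3184 and 3435 to between 3595 and 4044 (3 of 7 called higher), and 2 of 4 macrophage markers were called higher. Their part was not tested.

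In RPKM *Piwil2*, *Mov10l1*, *Mael* and *Ddx4* lay wholly above the controls in sorted cells and wholly below them in testis. Their ratios of mean RPKM in sorted cells exceeded the fitted fold changes, with 1.147 against 1.09 for *Mov10l1* and 1.247 against 1.18 for *Piwil2*. The part of this scaling in the separation was not tested. The difference between the effects in the 2 tissues was tested after these values had been seen, in a fit that held both sets of libraries. It passed for 5 members (3.15% of all genes): *Mael* (0.70, SE 0.12, adjusted p = 0.00267), *Ddx4* (0.55, adjusted p = 0.00357), *Mov10l1* (0.49, adjusted p = 0.00924), *Piwil2* (0.45, adjusted p = 0.0212) and *Gtsf1* (0.51, adjusted p = 0.0496). *Gtsf1* was lost in 14 of 17 alternatives, among them most that left out 1 library, and *Piwil2* in 5 of 17 (adjusted p up to 0.0832), with a replicate block and without testis tg/+ replicate 2 or 3 or tg/tg replicate 2 or 3. The median over the 10 was 0.42 against 0.02 for all genes. For the same difference 4 of 6 germ cell markers (median 0.51) and 5 of 8 early meiosis markers (median 0.64) were higher and none lower. Of 5 differentiating spermatogonia markers 2 were higher and none lower. None of 7 undifferentiated spermatogonia markers was called, and 1 of 7 Sertoli markers was lower. The part of these markers was not tested. Sorted cells and testes were also made into libraries with different kits, which cannot be told apart from tissue.

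**Figure D2:**
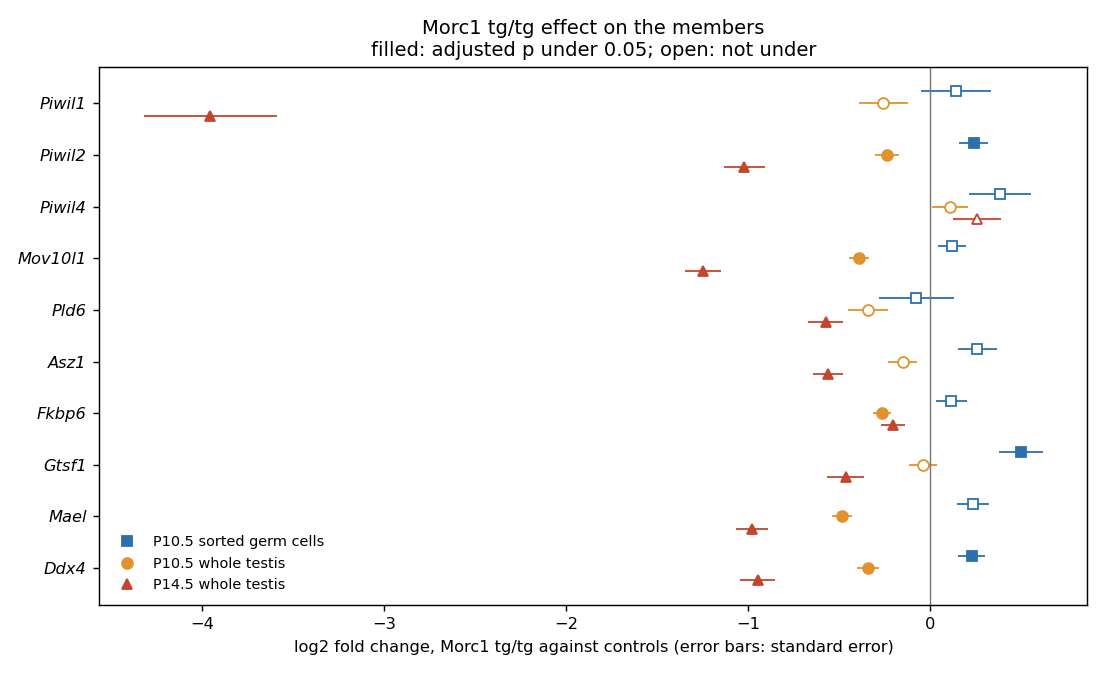
Log2 fold change of tg/tg over control for each of the 10 genes at P10.5 in sorted germ cells and in whole testis and at P14.5 in whole testis, with bars of 1 standard error and filled symbols where the adjusted p passed. Sorted-cell values lie at or above 0 except *Pld6* (-0.08), and testis values lie at or below 0 except *Piwil4* (0.11 and 0.26).

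Of the 18 other pathway genes, 4 were higher and 2 lower in sorted tg/tg cells at P10.5. *Tdrd6* (2.02, from between 5 and 9 reads in tg/+ to between 21 and 32 in tg/tg) and *Spocd1* (1.00) led those that were higher, and *Mybl1* (-0.56), the MYB factor of meiotic piRNA loci, and *Tex15* (-0.24) were lower, where 6.43% of all genes were higher and 5.79% lower. In testis none was higher and 9 were lower (6.08% and 9.26% of all genes were), led by *Tex15* (-0.86) and *Tdrkh* (-0.57). At the 3 earlier stages none of the 18 was called in either direction.

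By P14.5 the testis difference had grown. Between P10.5 and P14.5 the first wave of germ cells passes into meiotic prophase, and in control testes 9 of 10 members rose, against 29.6% of all genes. *Piwil1* rose most, from 1.07, 1.13 and 1.28 RPKM to 22.6, 11.4 and 29.6 (log2 4.20, SE 0.30, adjusted p = 6.24e-08). *Mov10l1* rose by 1.32, *Piwil2* by 1.11, *Mael* by 0.96 and *Ddx4* by 0.94. *Asz1*, *Fkbp6*, *Gtsf1* and *Pld6* rose by 0.43 to 0.57, and *Piwil4* did not pass (0.19, adjusted p = 0.182). With this, *Piwil1* moved from the last place at P10.5 (1.16 ± 0.11, n = 3) to the seventh by mean at P14.5 (21.2 ± 9.15, n = 3), where its libraries overlapped those of *Gtsf1*, *Asz1* and *Pld6*, and *Piwil4* became the lowest member (2.78 ± 0.446). Over the same days the summed germ cell markers of control testes went from between 317 and 326 to between 787 and 986 RPKM (4 of 6 higher) and those of early meiosis from between 106 and 112 to between 453 and 637 (8 of 8 higher). All 4 pachytene markers tested were higher, 6 of 7 Sertoli markers were lower, and the part of these shifts in the members' rise was not tested.

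In tg/tg testes at P14.5 9 of 10 members were lower than in tg/+ (20.1% of all genes were). In all 9 every tg/tg testis lay below every control, and the share of all genes separated in this way was not counted. *Piwil1* was at 1.75, 1.01 and 1.32 RPKM against the 22.6, 11.4 and 29.6 of the controls, which is 15.5-fold lower (log2 -3.95, SE 0.36, adjusted p = 0.000157). The tg/tg values lay near those of P10.5 control testes. *Mov10l1* was at 29.04, 22.5 and 25.9 against 61.1, 56.3 and 67.3 (-1.25, SE 0.099, adjusted p = 0.000102). *Piwil2* was at 41.4, 30.5 and 34.8 against 74.4, 64.1 and 78.8 (-1.02, SE 0.11, adjusted p = 0.000337).

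The germ granule genes were lower by about as much as *Piwil2*. *Mael* was at 54.6, 52.7 and 51.7 RPKM against 101.8, 94.4 and 118.4 (-0.98, SE 0.090, adjusted p = 0.000156), and *Ddx4* at 49.1, 41.2 and 45.4 against 87.5, 78.1 and 97.3 (-0.95, SE 0.094, adjusted p = 0.00022). *Pld6* (-0.57, adjusted p = 0.00239), *Asz1* (-0.56, adjusted p = 0.00144) and *Gtsf1* (-0.46, adjusted p = 0.00803) followed. *Fkbp6* (-0.20, adjusted p = 0.0457) lost its call in 7 of 10 alternatives, 5 of which left out 1 library. *Piwil4* was the exception, at 3.36, 2.99 and 3.56 against 3.12, 2.94 and 2.27 (0.26, adjusted p = 0.166).

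**Figure D3:**
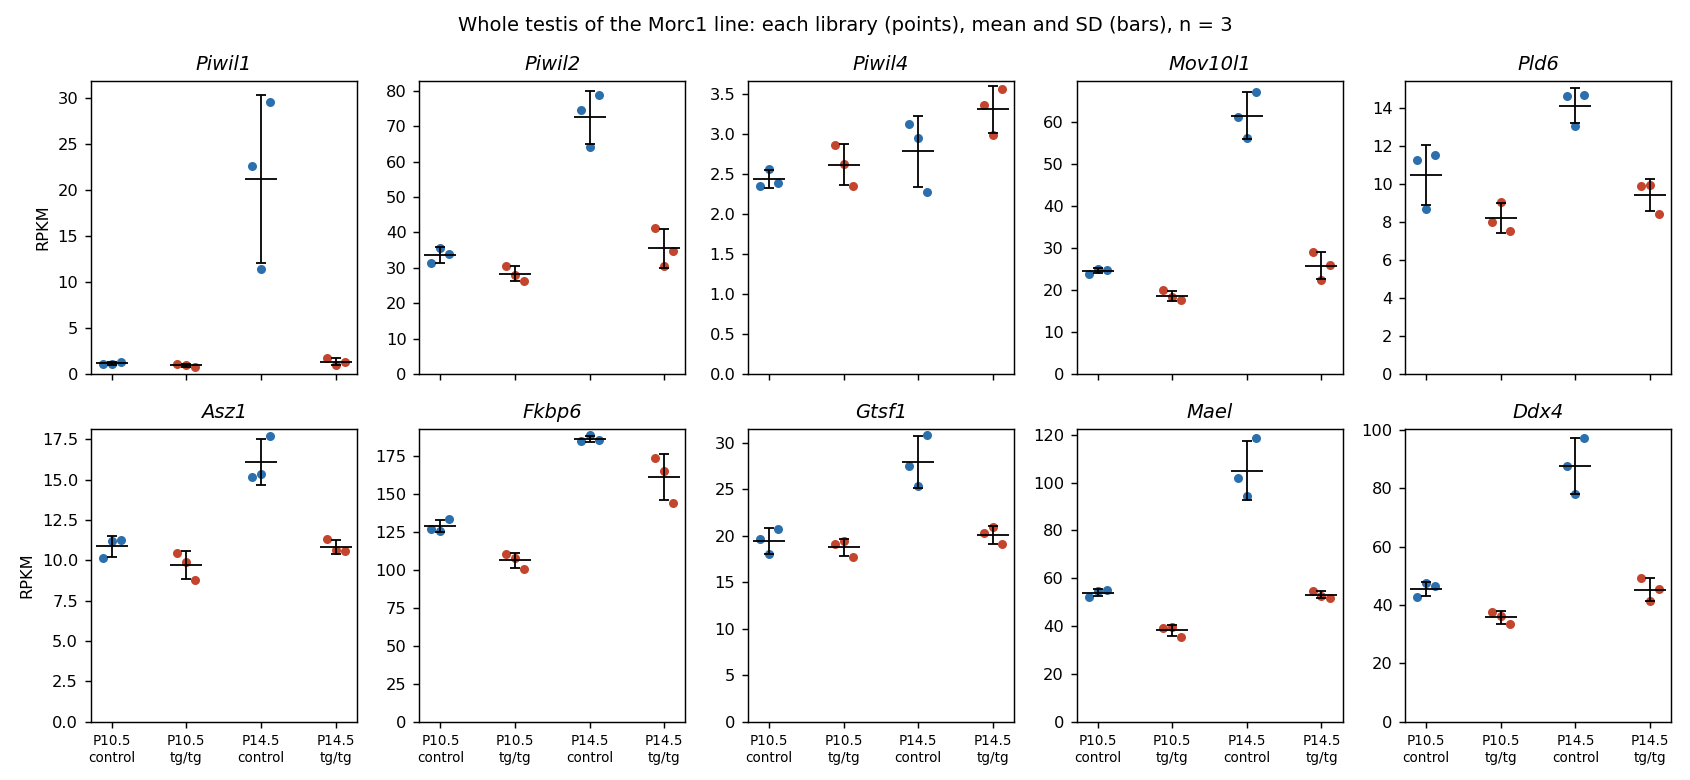
RPKM on a linear axis of the 10 genes in whole testes at P10.5 and P14.5, with 1 point per library and bars of mean and SD. *Morc1* tg/tg and control have separate colours. *Piwil1* lies between 11.4 and 29.6 in P14.5 controls and between 1.01 and 1.75 in tg/tg, and only *Piwil4* overlaps between genotypes at P14.5.

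The tg/tg difference was larger at P14.5 than at P10.5 for 6 members, against 6.73% of all genes. These were *Piwil1* (-3.70, SE 0.45, adjusted p = 0.000363), *Mov10l1* (-0.87, adjusted p = 0.000591), *Piwil2* (-0.79, adjusted p = 0.0025), *Ddx4* (-0.62, adjusted p = 0.00415), *Mael* (-0.50, adjusted p = 0.0102) and *Asz1* (-0.42, adjusted p = 0.0400). The call of *Asz1* was lost in 12 of 16 alternatives. *Gtsf1* (-0.43, adjusted p = 0.0502) and *Pld6* (-0.24) did not pass, and *Fkbp6* (0.05) and *Piwil4* (0.14) lay on the other side of 0. The median over the members was -0.76 at P14.5 (0.01 for all genes) and -0.26 at P10.5 (0.01 for all genes).

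Markers of germ cells and of meiosis moved in the same testes. At P14.5 the summed germ cell markers lay between 787 and 986 RPKM in tg/+ and between 339 and 386 in tg/tg (4 of 6 called lower). Early meiosis markers lay between 453 and 637 and between 135 and 162 (8 of 8 lower), and pachytene markers between 134 and 255 and between 39.9 and 45.4 (4 of the 4 tested, of 7, lower). Sertoli markers lay between 2936 and 3261 in tg/+ and between 3888 and 4801 in tg/tg, with 7 of 7 called higher. Their part in the members' differences was not tested. Among the 18 other pathway genes 14 were lower and none higher at P14.5 (20.1% and 14.8% of all genes were), led by *Tdrd6* (-4.05) and *Tdrd12* (-1.89). In control testes 13 of the 18 had risen from P10.5 (29.6% of all genes had), these 2 again the most (4.24 and 1.91), and the tg/tg difference was more negative at the later age in 7 (6.73% of all genes) and less so in 1 (1.49% of all genes), *Tex15* (0.31).

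In *Dnmt3l*-/- testes at P10.5 all 10 members were lower than in the 6 controls, while 29% of all genes were. *Mov10l1* had a lowest, median and highest control of 30.3, 32.9 and 38.3 RPKM and stood at 9.73, 10.4 and 12.8 in *Dnmt3l*-/- (log2 -1.58, SE 0.095, adjusted p = 2.0e-07). *Mael* was at 33.1, 34.4 and 36.0 against 82.4 to 103.4 (-1.39, SE 0.073, adjusted p = 1.29e-07), and *Piwil2* at 20.5, 19.9 and 25.6 against 53.1 to 65.9 (-1.35, adjusted p = 5.31e-07). In all 10 every *Dnmt3l*-/- testis lay below every control, and the share of all genes separated in this way was not counted.

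*Piwil1* was at 0.599, 0.695 and 0.839 RPKM against 1.56 to 2.04 (-1.34, adjusted p = 5.79e-06). *Piwil4*, which did not fall in *Morc1* tg/tg testes, was at 1.34, 1.90 and 2.39 against 3.58 to 3.96 (-0.94, adjusted p = 0.000142). *Asz1* (-1.07, adjusted p = 2.8e-06), *Fkbp6* (-1.05, adjusted p = 5.55e-07), *Ddx4* (-0.99, adjusted p = 1.87e-06) and *Pld6* (-0.63, adjusted p = 0.000165) fell as well. *Gtsf1* fell least, from 19.7 to 23.7 in controls to 13.6, 16.8 and 15.4 (-0.43, SE 0.088, adjusted p = 0.00148). The median of the 10 was -1.06 against 0.00 for all genes.

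The difference of the *Morc1* and the *Dnmt3l* effect at P10.5 was tested in 1 fit over both lines. Mutated gene, line, strain and sequencing cannot be told apart in this difference. It passed for 8 members (9.45% of all genes), each with the lower value in the *Dnmt3l* line. The largest were *Mov10l1* (1.14, adjusted p = 1.33e-05), *Piwil2* (1.07, adjusted p = 3.23e-05), *Piwil1* (1.04) and *Piwil4* (1.00, adjusted p = 0.00149), followed by *Asz1* (0.88), *Mael* (0.85), *Fkbp6* (0.74) and *Ddx4* (0.60). *Gtsf1* (0.34, adjusted p = 0.061) and *Pld6* (0.24, adjusted p = 0.310) did not pass. Markers differed as well. For the same difference, *Morc1* minus *Dnmt3l*, 5 of 6 germ cell markers and 2 of 8 early meiosis markers were higher and none lower. Differentiating spermatogonia markers had 4 of 5 higher and 1 lower, and Sertoli markers 5 of 7 lower and none higher. Within the *Dnmt3l* line the summed germ cell markers lay between 360 and 481 RPKM in controls and between 119 and 150 in *Dnmt3l*-/- (6 of 6 called lower). Early meiosis markers lay between 99.7 and 181 and between 41.7 and 56.4 (8 of 8 lower). Of the 7 Sertoli markers 6 were higher in *Dnmt3l*-/-, as were 2 of 3 endothelial markers. Undifferentiated spermatogonia markers had 4 of 7 higher and 1 lower, and differentiating spermatogonia markers 4 of 5 lower and 1 higher. All 4 pachytene markers tested were lower. The part of these shifts was not tested. Of the 18 other pathway genes 16 were lower, led by *Tdrd9* (-2.04) and *Tdrd6* (-1.70), and 1, *Mybl1* (0.49), was higher, where 29% of all genes were lower and 24.9% higher. The difference between the lines passed for 15 of them (17.6% of all genes), and for 14 of the 15 the *Morc1* value was the higher one.

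The *Miwi2* line showed another pattern. Between the 2 testes labelled *Miwi2*-/- and the 2 *Miwi2*+/- testes, 2 members were higher (0.725% of all genes were) and 1 was lower (0.506% of all genes). *Piwil2*, the cytoplasmic partner of *Piwil4*, was at 33.3 and 30.8 RPKM in *Miwi2*+/- and at 105.9 and 99.6 in the libraries labelled *Miwi2*-/-, which is 3.17-fold higher (log2 1.66, SE 0.081, adjusted p = 1.39e-06). It had the eighth smallest p of the 15997 genes tested (rank 8). *Piwil4* was at 6.65 and 7.01 against 10.7 and 11.5 (0.69, SE 0.074, adjusted p = 0.000746, rank 42). The targeted gene was thus higher, not lower, in the libraries that carry the mutant label. The tables hold 1 count over all exons, so an allele that leaves part of the transcript in place would not be seen, and direction in this line follows the labels.

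*Gtsf1* was the member that was lower, at 37.3 and 31.7 RPKM against 21.9 and 20.4 (-0.73, SE 0.092, adjusted p = 0.00251, rank 57). *Fkbp6* (0.28, adjusted p = 0.091), *Mov10l1* (0.21, adjusted p = 0.129) and *Asz1* (-0.22, adjusted p = 0.124) had non-overlapping groups but did not pass, as did *Pld6* (0.10). The share of all genes separated in this way was not counted. *Fkbp6*, *Mov10l1* and *Asz1* were called by edgeR with a replicate block, which called 4503 genes in place of 197. With 2 libraries a group, a fit with the block has little left from which to estimate the spread. *Fkbp6* was also called by DESeq2 (adjusted p = 0.0300). *Piwil1* (0.11), *Mael* and *Ddx4* overlapped. *Mael* was at 97.4 and 86.9 against 92.9 and 86.1 (-0.06, adjusted p = 0.715), and *Ddx4* at 77.4 and 81.9 against 77.9 and 81.6 (-0.02, adjusted p = 0.930). Both germ granule genes, called lower in the other mutant testes, differed here by less than the spread between libraries. The summed germ cell markers lay between 433 and 443 in *Miwi2*+/- and between 408 and 433 in the libraries labelled *Miwi2*-/-, with none of 6 called lower, and 1 of 8 early meiosis markers was lower. Other sums did not overlap: Sertoli markers lay between 1836 and 1984 in *Miwi2*+/- and between 2140 and 2195 in the libraries labelled *Miwi2*-/- (none called), Leydig markers between 357 and 390 and between 308 and 323 (1 of 5 lower), macrophage markers between 14.1 and 14.2 and between 16.8 and 18.3 (none called), endothelial markers between 19.6 and 21.5 and between 23.4 and 26.4 (none called), and undifferentiated spermatogonia markers between 30.5 and 30.8 and between 33.6 and 35.0 (none called). Their part in the members' differences was not tested. The 3 calls stayed when any 1 of the 4 libraries was left out. The list median was 0.11 against 0.01 for all genes, and of the 18 other pathway genes 1, *Tdrd9* (0.34), was higher and none was lower.

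**Figure D4:**
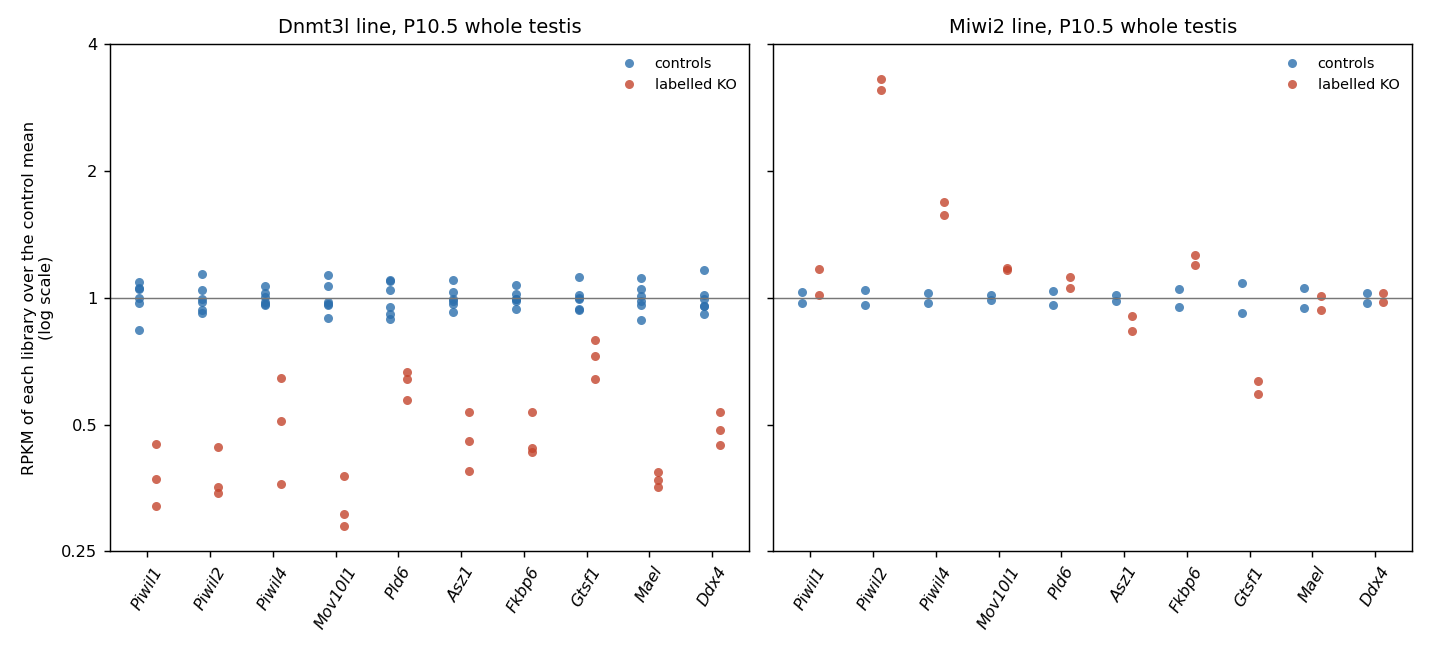
RPKM of each library divided by the control mean of its line, on a log axis, for the 10 genes in P10.5 testes. The lines are *Dnmt3l* (6 controls, 3 *Dnmt3l*-/-) and *Miwi2* (2 *Miwi2*+/-, 2 labelled *Miwi2*-/-), with 1 point per library. All 10 genes lie lower in *Dnmt3l*-/-. In the *Miwi2* line the RPKM behind the points go from 33.3 and 30.8 to 105.9 and 99.6 for *Piwil2* and from 37.3 and 31.7 to 21.9 and 20.4 for *Gtsf1*.

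The same genes can be ordered by level in control testis. In the 3 P10.5 controls of the *Morc1* line *Fkbp6* led at 129 ± 4.03 RPKM, followed by *Mael* (53.9 ± 1.38), *Ddx4* (45.6 ± 2.398), *Piwil2* (33.6 ± 2.18), *Mov10l1* (24.6 ± 0.59) and *Gtsf1* (19.5 ± 1.38). *Asz1* (10.9 ± 0.63) and *Pld6* (10.49 ± 1.57) overlapped, and *Piwil4* (2.43 ± 0.11) and *Piwil1* (1.16 ± 0.11) were the lowest. The controls of the other lines stood elsewhere at the same age: *Piwil2* between 53.1 and 65.9 in the *Dnmt3l* line, and *Piwil4* at 6.65 and 7.01 in the *Miwi2* line. Line, strain and sequencing cannot be told apart in these levels, so levels were compared within a line. Across lines only the *Morc1* and *Dnmt3l* effects, each against its own controls, were compared.

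Small RNAs were sequenced in 1 library of whole testis per stage and genotype, with testes pooled at E16.5, so these values describe 4 libraries and allow no test. Reads longer than 24 nt, the size of piRNAs, made up 32.9% of the 35234779 reads of 18 to 34 nt in tg/+ and 31.0% of 28125594 in tg/tg at E16.5. At P10.5 the shares were 15.4% of 27099949 and 14.2% of 21813720. The exact binomial 95% intervals of these shares were narrower than the last digit printed and cover counting error only. The longer reads were thus a smaller share at P10.5 than at E16.5 in both genotypes, and at each stage a slightly smaller one in tg/tg. The short end of the E16.5 libraries differed too, with 22 nt reads at 26.4% in tg/+ and 19.2% in tg/tg and 19 nt reads at 4.12% and 9.14%, and its part in the share over 24 nt was not tested.

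Length separates the PIWI proteins, since PIWIL2 binds shorter piRNAs than PIWIL4. Among reads over 24 nt, those of 28 to 30 nt made up 42.9% in tg/+ and 45.5% in tg/tg at E16.5, and 29.8% and 35.8% at P10.5. Those of 26 to 27 nt made up 40.5% and 37.5% at E16.5, and 46.9% and 43.7% at P10.5. The commonest length was 27 nt in 3 libraries and 28 nt in tg/tg at E16.5. The share of the longer class was thus lower at P10.5 than at E16.5 in both genotypes, and higher in tg/tg at each stage. A first base of T, the usual start of primary piRNAs and of many microRNAs, was present in 62.1% and 61.4% of reads over 24 nt at E16.5 and in 49.7% and 53.5% at P10.5. Among reads of 20 to 23 nt, the size of microRNAs, it was present in 51.5% and 45.2% at E16.5 and in 58.4% and 61.7% at P10.5, so at P10.5 the longer reads had the lower share. The read files give no PIWI protein of origin, and reads were not mapped here.

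**Figure D5:**
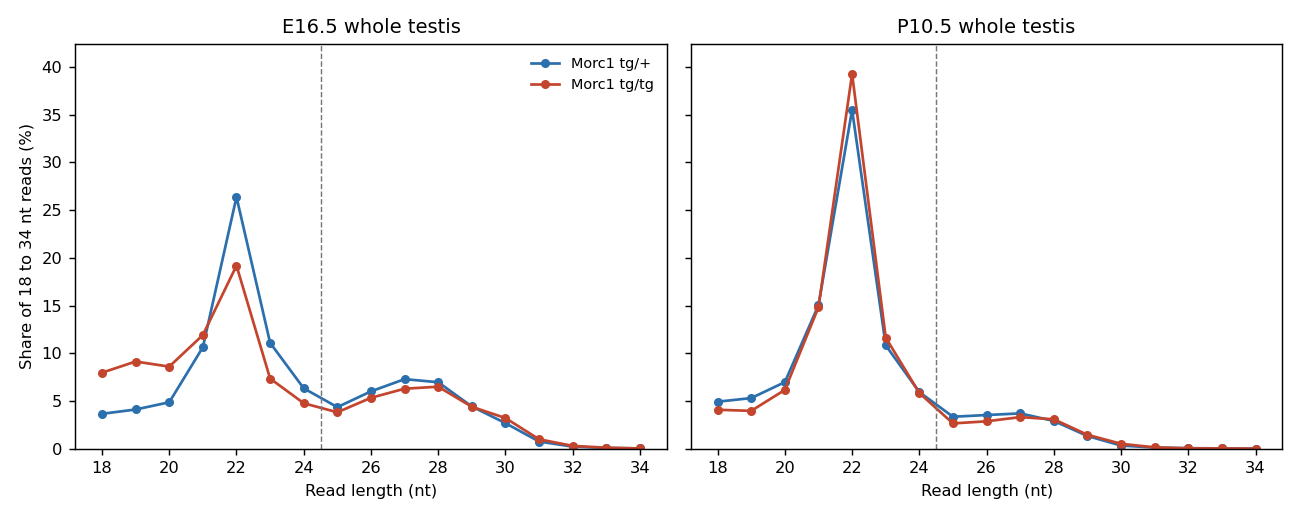
Share of 18 to 34 nt small RNA reads (percent) at each length in nt, with 1 line per library of whole testis at E16.5 and P10.5 and a colour per genotype, and a dashed line above 24 nt. Reads over 24 nt make up 32.9% (tg/+) and 31.0% (tg/tg) at E16.5 and 15.4% and 14.2% at P10.5.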

How the data were processed

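RNA-Seq was available for 47 libraries and small RNA sequencing for 4. The authors trimmed reads to 50 bp, discarded ribosomal reads, mapped to mm9 with Bowtie keeping reads with a single location, and counted reads per gene with HTSeq, versions not given in the sources used here. The deposited tables hold raw counts and, in the next column, RPKM, scaled by the authors to exon length and mapped reads. Sorted cells were made into rRNA-depleted total RNA libraries and testes into poly(A) libraries, so RPKM were compared within a kind only, and without strand-aware counting being stated overlapping transcripts cannot be separated. The deposited small RNA files list adaptor-trimmed reads, of which lengths from 18 to 34 nt were counted. These carry no unit beyond 1 read per line.

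Counts were tested with edgeR 4.0.16 (R 4.3.3, TMM, filterByExpr, quasi-likelihood F test) over all genes passing the filter. Benjamini-Hochberg adjustment was used, with a threshold of 0.05. The stage steps were contrasts of 1 fit over all tg/+ sorted libraries, so they shared an estimate of spread across stages and both gates. The P14.5 against P10.5 comparisons of testis came from 1 fit that held control and tg/tg testes of both ages. Every other comparison had its own fit. All 10 members passed the filter in every comparison. SE is the unshrunk log2 fold change divided by the root of F. The study used DESeq, and DESeq2 1.42.0 was an alternative. Scripts were tested on simulated data. All members were named in every comparison, with at most 2 other pathway genes per direction. Members and lists were chosen with earlier results of these data known. Groups came from the labels. Each library is 1 mouse, so p-values measure the spread between animals. Methylation and chromatin data of the study were not analysed here.

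Gene counts ranged from 2413679 to 42137954 per library. Replicate numbers were not taken to pair samples: in no comparison with 3 or more pairs did every same-numbered pair of libraries correlate above 0.1 in its deviations from the group means.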

Additional observations from a re-analysis of the deposited data

Results flagged for a closer look

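The *Morc1* tg/tg difference in testis passed the test as more negative at P14.5 than at P10.5 for 6 members (6.73% of all genes). On the log2 scale, P14.5 minus P10.5, the values were -3.704 for *Piwil1*, -0.8681 for *Mov10l1*, -0.7942 for *Piwil2*, -0.6176 for *Ddx4*, -0.5031 for *Mael* and -0.4202 for *Asz1*. The *Asz1* call was lost in 12 of 16 alternatives. For the same difference 5 of 8 early meiosis markers were lower and 1 higher, 3 of 4 pachytene markers tested were lower, and of the 6 germ cell markers 1 was lower and 1 higher (median -0.05). Their part was not tested.

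At P10.5 the tg/tg difference passed as higher in sorted germ cells than in whole testis for 5 members (3.15% of all genes), in a comparison added after the values had been seen. Germ cells minus testis, the log2 values were 0.6967 for *Mael*, 0.5456 for *Ddx4*, 0.5145 for *Gtsf1*, 0.4864 for *Mov10l1* and 0.4536 for *Piwil2*. The *Gtsf1* call was lost in 14 of 17 alternatives and the *Piwil2* call in 5 of 17. For the same difference 4 of 6 germ cell markers (median 0.51) and 5 of 8 early meiosis markers (median 0.64) were higher and none lower. Their part was not tested. Library kit and tissue cannot be told apart in this comparison.

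For *Ddx4*, the fourth tg/+ library of P10.5 sorted cells lay apart from the other 3 at 48.09 RPKM. Of 20 sets of values examined (the 10 members in each of the 2 groups with 4 or more libraries, the sorted P10.5 tg/+ cells and the *Dnmt3l* controls) it was the only one with a library this far apart, and chance alone gives about 1 in 20. Without it the *Ddx4* difference in sorted cells was 0.19 (log2) and no longer passed.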

How the results depend on the processing

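Of 160 gene comparisons of the members, 79 passed the test; 65 of these held in every alternative and 14 were lost in some, while 13 others passed in some. No passing value changed sign. At E16.5 1 member was called in place of 0 under DESeq2, without the filter on low counts and with the replicate block, which was *Gtsf1* (adjusted p 0.0268 to 0.0445), and between 0 and 1 when 1 library was left out (*Asz1*, without tg/tg replicate 2). In P10.5 sorted cells the replicate block gave 1 in place of 3, and leaving out 1 library gave 1 to 4 (1 without tg/+ replicate 3 or 4 or tg/tg replicate 3). In the *Miwi2* line the replicate block gave 6 in place of 3, adding *Mov10l1*, *Asz1* and *Fkbp6*, and between sorted cells and testis it gave 3 in place of 5. Leaving out 1 library gave 5 to 8 of the 8 calls from E16.5 to E18.5 (5 without E16.5 tg/+ replicate 2), 3 to 5 from E18.5 to P2.5 (3 without P2.5 tg/+ replicate 2), and 3 to 5 between sorted cells and testis (3 without testis tg/+ replicate 2 or 3 or tg/tg replicate 2 or 3). The cause of these changes was not tested. Other counts stayed within 1.5 times. In P10.5 testis 4 to 6 members were called, 6 under DESeq2, without the filter and with the preliminary libraries, where *Pld6* was added (adjusted p 0.0305 to 0.0417), as it was without tg/+ replicate 2 (adjusted p = 0.00765). Leaving out 1 library gave 8 to 9 at P14.5 and 10 in the *Dnmt3l* line. *Piwil2* in P10.5 testis was lost in 5 of 11 alternatives (adjusted p 0.0139 to 0.169), and *Piwil2* from P2.5 to P10.5 in 5 of 15 (adjusted p 0.00306 to 0.0962).

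Counts over all genes moved more. At E16.5 70 calls became 180 without the filter and 174 with the replicate block, at E18.5 6 became 271 by DESeq2, 83 without the filter and 46 with the block, and at P2.5 7 became 21, 27 and 30. In P10.5 testis the block gave 1200 in place of 2326, and in the *Miwi2* line 4503 in place of 197 (364 by DESeq2). For E16.5 minus P10.5 the 290 calls became 507 without the filter. Leaving out 1 library moved these counts to between 74 and 171 at E16.5 (171 without tg/tg replicate 2), 0 and 190 at E18.5, 0 and 70 at P2.5, 922 and 2352 in P10.5 testis (922 without tg/tg replicate 3), 3517 and 5001 at P14.5 (5323 with all), 340 and 952 in the *Miwi2* line, 1731 and 4795 from E16.5 to E18.5 (3151 with all), and 412 and 1321 between sorted cells and testis (1034 with all; 1710 by DESeq2, 663 with the block). For the differences of effects they became 772 to 1746 in place of 1287 (P14.5 minus P10.5), 1753 to 4021 in place of 2797 (*Morc1* minus *Dnmt3l*) and 130 to 312 in place of 290 (E16.5 minus P10.5), so the shares of all genes given beside the members move with single libraries. The *Miwi2* line has 2 same-numbered pairs, too few to judge pairing, and the libraries of a pair correlated with r = 0.321. For *Pld6* a P2.5 sorted library held as few as 3 reads, so a small difference was not detectable there at this depth.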
